A study of Mus musculus with 5 samples.

Results

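A set of 10 genes that mark macrophages was followed through the culture of mouse embryonic fibroblasts (MEFs) in 5C medium. They are Lyz2, Cd68, Csf1r, Itgam, Adgre1, Mrc1, Tyrobp, Fcer1g, Cd5l and Mpeg1. The genes were chosen by name with earlier results of these data known, so comparisons with all genes below are descriptions. All 10 were found by symbol among the 27729 genes of the deposited values. The MEFs came from ICR mouse embryos at mid-gestation, from which the head and the internal organs had been taken away, and they were passaged in medium with fetal bovine serum (FBS). RNA was taken before the change of medium (day 0, FBS medium) and on days 2, 5, 10 and 14 of 5C medium, which is DMEM/F12 that holds 2-mercaptoethanol, vitamin C, N2, leukemia inhibitory factor (LIF) and basic fibroblast growth factor but no serum. The labels call this medium 6C, and for the library labelled day 14 the treatment text beside it says day 15. Each day is 1 library, so every difference between days is a difference between single libraries without a replicate check, and no p-value is given.

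Macrophages are phagocytes that reside in nearly every tissue and are already present in the embryo. They depend on the growth factors CSF1 and IL34, both of which act through the receptor encoded by Csf1r, and on the transcription factor PU.1, which is encoded by Spi1. The genes examined here cover different parts of the cell: Lyz2, Cd68 and Mpeg1 encode proteins of granules, lysosomes and phagosomes, Csf1r, Itgam, Adgre1 and Mrc1 encode surface receptors, Tyrobp and Fcer1g encode signalling adaptors with ITAM motifs, and Cd5l encodes a secreted scavenger protein. A preparation of embryonic fibroblasts is named for its main cell and is not a single cell type.

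The deposited expected counts, which are RSEM's estimates of the reads from each gene, amounted to 2253748 in the day 2 library, the smallest, and 3890334 in the day 0 library, the largest. Among fibroblast collagen genes, Col1a1 held 14109 and Col1a2 7627 expected counts at day 0, against 25414 and 15816 at day 14. For normalized counts, the expected counts were adjusted for library size by the TMM method and brought to a common scale, so that the days can be compared for 1 gene. A share of 3 counts, used here as the floor, corresponds to a normalized count between 2.14 on day 10 and 5.43 on day 2, the shallowest library. Intervals given below are exact 95% intervals that cover counting error only and not differences between cultures. In RNA of a whole culture, fewer cells of a type and less RNA per cell cannot be told apart.

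As a group, the macrophage genes were barely represented in the starting MEFs and were highest on day 5. Together they held 292 expected counts, or 0.00751% of all counts, on day 0, and 0.0521% (day 2), 0.137% (day 5), 0.0911% (day 10) and 0.0581% (day 14). Their summed TPM, a level per gene length, was 67.8 (day 0), 506 (day 2), 1757 (day 5), 1329 (day 10) and 785 (day 14). Lyz2 made up 44.6% of this sum on day 0 and 71.3% on day 5. Without Lyz2, the sum was 37.5 (day 0), 230 (day 2), 505 (day 5), 447 (day 10) and 285 (day 14), so the order of the days was the same.

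Every one of the 10 genes passed the filter of 10 expected counts in at least 1 library, as did 13346 genes in all. On day 2 all 10 were over 2-fold above day 0, where 15.2% of the genes that passed the filter were. With TPM values and a pseudocount of 1 TPM 8 were, without Adgre1 (log2 change 0.80) and Csf1r, which stood at 2-fold and not over it. Without that pseudocount both pass 2-fold, with 0.33 TPM (day 0) and 1.31 (day 2) for Adgre1 and 3.09 and 7.18 for Csf1r. In normalized counts 9 of the 10 were over 2-fold above day 0 on day 5 (20.2% of all genes), 8 on day 10 (28.7% of all genes) and 7 on day 14 (24.5% of all genes). None was over 2-fold below day 0 on day 2 (13.1% of all genes), and 1 gene, Itgam, was on day 5 (13.6% of all genes), day 10 (22.3%) and day 14 (19.9%). The median log2 change of the 10 genes was 2.86 (day 2), 3.56 (day 5), 2.83 (day 10) and 2.19 (day 14), against −0.03, 0.05, 0.14 and 0.07 for all genes. Cd5l had no count on day 0, and with its change set to the bound that 3 counts give, the day 2 median was 2.59 and the others were the same. The intervals of these changes lay above 0 except for Itgam, below 0 on days 5, 10 and 14, and for Csf1r and Fcer1g, whose day 14 intervals held 0. The share of all genes whose interval leaves 0 out is not given here.

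**Figure D1:**
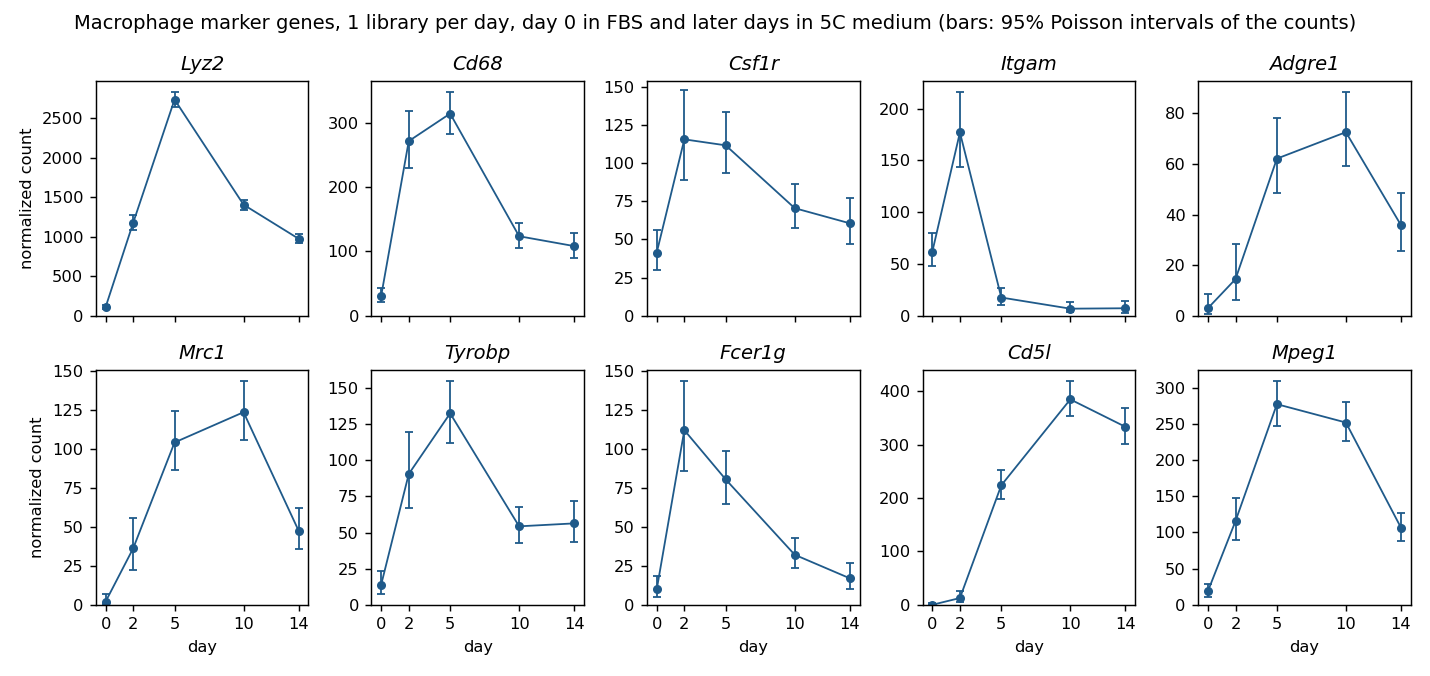
Normalized counts of each of the 10 macrophage marker genes (vertical axes, a separate scale for each gene) against day (horizontal axes), with 1 library per day and bars for the 95% Poisson intervals of the counts. Itgam was highest on day 2 and stood at 6.81 on day 10, whereas Cd5l went from 0 on day 0 to 385 on day 10.

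Lyz2 (lysozyme M, ENSMUSG00000069516, chromosome 10, 117277331 to 117282321, minus strand) encodes the bacteriolytic enzyme of macrophage and neutrophil granules. Its normalized count was 108 (day 0), 1177 (day 2), 2738 (day 5), 1407 (day 10) and 974 (day 14). All later libraries were thus far above day 0, by 10.9-fold on day 2, 25.4-fold on day 5 (log2 change 4.65, interval 4.39 to 4.95), 13.0-fold on day 10 and 9.03-fold on day 14. The day 5 library was the highest, and the step to day 10 was −0.96 (interval −1.04 to −0.88). Lyz1, the neighbouring copy that is best known from intestinal Paneth cells and that could share reads, had at most 3.86 expected counts in a library.

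Cd68 (macrosialin, ENSMUSG00000018774, chromosome 11, 69664213 to 69666153, minus strand) encodes a glycoprotein of the lysosomal membrane. It had normalized counts of 30.7 (day 0), 271 (day 2), 314 (day 5), 124 (day 10) and 108 (day 14). Days 2 and 5 were together at the top, 8.85-fold and 10.2-fold above day 0, and the interval of the difference between them held 0 (−0.07 to 0.50). Days 10 and 14 were 4.03-fold and 3.53-fold above day 0.

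Mpeg1 (perforin-2, ENSMUSG00000046805, chromosome 19, 12460779 to 12465283, plus strand) encodes a pore-forming protein that acts on engulfed bacteria. Normalized counts were 18.8 (day 0), 116 (day 2), 277 (day 5), 252 (day 10) and 106 (day 14). It was 14.8-fold above day 0 on day 5 (log2 change 3.81, interval 3.22 to 4.63) and 13.4-fold on day 10, which did not differ beyond their interval (−0.36 to 0.09). On day 14 it was 5.66-fold above day 0 and changed against day 10 by −1.24 on the log2 scale (interval −1.56 to −0.94).

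Adgre1 (ENSMUSG00000004730, chromosome 17, 57358691 to 57483527, plus strand) encodes F4/80, the adhesion receptor by which mouse macrophages are most often stained. Its expected counts were 3 (day 0), 8 (day 2), 71 (day 5), 102 (day 10) and 40 (day 14), which gave normalized counts of 2.97, 14.5, 62.1, 72.6 and 35.8. Day 0 was at the floor of 3 counts and days 5 and 10 were at the top, with an interval between them that held 0 (−0.22 to 0.69). The ratio to day 0 was 20.9 on day 5 (log2 change 3.99, interval 2.78 to 6.70) and 24.5 on day 10 (log2 change 4.21, interval 3.03 to 6.92).

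Mrc1 (ENSMUSG00000026712, chromosome 2, 14229392 to 14332057, plus strand) encodes CD206, the mannose receptor of many tissue macrophages. Its expected counts from day 0 to day 14 were 2, 20, 119, 173 and 53, and the normalized counts were 1.98, 36.2, 104, 124 and 47.4. Only 2 counts stood on day 0, so the ratio of 62.4 on day 10 has a wide interval (log2 change 5.39, interval 4.09 to 9.02). Between day 10 and day 14 the log2 change was −1.36 (interval −1.86 to −0.93).

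Csf1r (ENSMUSG00000024621), the receptor for CSF1 and IL34, was the member with the smallest changes against day 0 in normalized counts. Its normalized count was 41.4 (day 0), 116 (day 2), 112 (day 5), 70.5 (day 10) and 60.5 (day 14). Days 2 and 5 were 2.79-fold and 2.70-fold above day 0, while day 10 was 1.70-fold above it (log2 change 0.75, interval 0.23 to 1.32) and day 14 was 1.46-fold above it, with an interval that held 0 (−0.03 to 1.14). On the TPM values the log2 changes on days 10 and 14 were 1.81 and 1.19, on a scale whose median over all genes was 1.09 and 0.78. In 4 of the 5 libraries the deposited length of Csf1r, 4701 bases, was that of its longer transcript, the 3′ end of which shares 873 bases with Hmgxb3 on the opposite strand. Hmgxb3 had 120, 8.13, 108, 209 and 143 expected counts from day 0 to day 14, and because the library kit does not mark strand, reads of both genes in the shared stretch cannot be told apart.

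Itgam (ENSMUSG00000030786, chromosome 7, 128062640 to 128118491, plus strand) encodes CD11b, an integrin chain that reaches the surface with CD18, its partner chain encoded by Itgb2. Its course was unlike that of the other members, with normalized counts of 61.9 (day 0), 177 (day 2), 17.6 (day 5), 6.81 (day 10) and 7.20 (day 14). Day 2 was 2.86-fold above day 0 (log2 change 1.50, interval 1.04 to 1.99), and days 5, 10 and 14 were 3.52-fold, 9.09-fold and 8.59-fold below it. The day 10 log2 change was −3.01 (interval −4.25 to −2.15). On the TPM values, with a pseudocount of 1 TPM, the log2 changes on days 5 and 10 were −0.81 and −0.84, which does not pass 2-fold. The median over all genes on this scale was 0.61 and 1.09. Without the pseudocount both days pass 2-fold below day 0, with 4.53 TPM (day 0), 2.16 (day 5) and 2.09 (day 10). Itgb2 did not share the course of Itgam, with 2 expected counts (day 0), 0 (day 2), 76 (day 5), 53 (day 10) and 25 (day 14). Like Lyz2, Cd68, Tyrobp and Mpeg1 it was highest on day 5. Itgb2 was thus listed at 0 in the library in which Itgam was highest, where 3 counts correspond to a normalized count of 5.43.

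The deposited Itgam value does not stand for Itgam alone. Of its 8 listed transcripts, 3 are not assigned to Itgam in GENCODE M21, and 2 of these belong to Gm49368, a gene on the same strand. In 3 of the 5 libraries the deposited length, 4803 bases, was exactly that of a Gm49368 transcript, and these were days 0, 2 and 14. The last exon of that transcript (chromosome 7, 128126808 to 128128160, GRCm38) contains Gm45700, a processed pseudogene of 347 bases that is 93.4% identical over 137 bases to the ribosomal protein gene Rpl35. Reads of Itgam, Gm49368 and the pseudogene cannot be told apart in the deposited value, and Rpl35 was not analysed here. Without Csf1r and Itgam, an exclusion chosen after their values had been seen, the other 8 genes were all above day 0 on every later day, for Fcer1g on day 14 within counting error, and their median log2 change was 3.24 (day 2), 3.903 (day 5), 3.68 (day 10) and 2.80 (day 14).

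Tyrobp (DAP12, ENSMUSG00000030579, chromosome 7, 30413760 to 30417585, plus strand) encodes the adaptor through which TREM2 and other receptors of myeloid cells signal. Its normalized count was 13.9 (day 0), 90.5 (day 2), 132 (day 5), 54.3 (day 10) and 56.3 (day 14). It was 6.53-fold above day 0 on day 2, 9.56-fold on day 5 (log2 change 3.17, interval 2.46 to 4.16), 3.92-fold on day 10 and 4.06-fold on day 14. Trem2, the receptor that pairs with it, had 8, 81, 130, 64 and 65 expected counts from day 0 to day 14, beside 14, 50, 151, 76 and 63 for Tyrobp. The log2 change of Trem2 against day 0 was highest on day 2, at 4.05, and was 3.69 (day 5), 2.39 (day 10) and 2.73 (day 14).

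Fcer1g (ENSMUSG00000058715, chromosome 1, 171229572 to 171234365, minus strand) encodes the common gamma chain of Fc receptors, which signals for the IgG receptors of macrophages and the IgE receptor of mast cells. It was early, with normalized counts of 9.90 (day 0), 112 (day 2), 80.5 (day 5), 32.1 (day 10) and 17.0 (day 14). Day 2 was 11.3-fold above day 0 (log2 change 3.38, interval 2.53 to 4.63), day 5 was 8.13-fold and day 10 was 3.25-fold above it, and the interval for day 14 held 0 (−0.40 to 2.05). Of the receptor chains that it serves, Fcgr3 had 5.72, 16.9, 93.5, 44.0 and 24.2 expected counts from day 0 to day 14 and Fcgr1 had 1, 4, 17, 12 and 14. These were highest on day 5, and the Fcgr3 value is uncertain because Fcgr genes share sequence. Ms4a2, the beta chain of the IgE receptor, had 0, 12, 19, 8 and 2 expected counts, and no other of the 6 mast cell markers passed 4 counts in any library.

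Cd5l (ENSMUSG00000015854, chromosome 3, 87357881 to 87371073, plus strand) encodes a secreted protein of tissue macrophages that is known to inhibit their apoptosis. It had 0 expected counts (day 0), 7 (day 2), 256 (day 5), 539 (day 10) and 373 (day 14). Against the floor of 3 counts in the day 0 library it was at least 4.27-fold higher on day 2, at least 75.4-fold on day 5, at least 130-fold on day 10 and at least 112-fold on day 14. It was the latest of the 10 genes by the share of its counts on days 10 and 14. Only 1.33% of its normalized counts over the 5 days fell on day 2, and it was the only member whose interval lay above 0 from day 5 to day 10 (log2 change 0.78, interval 0.56 to 1.00).

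**Figure D2:**
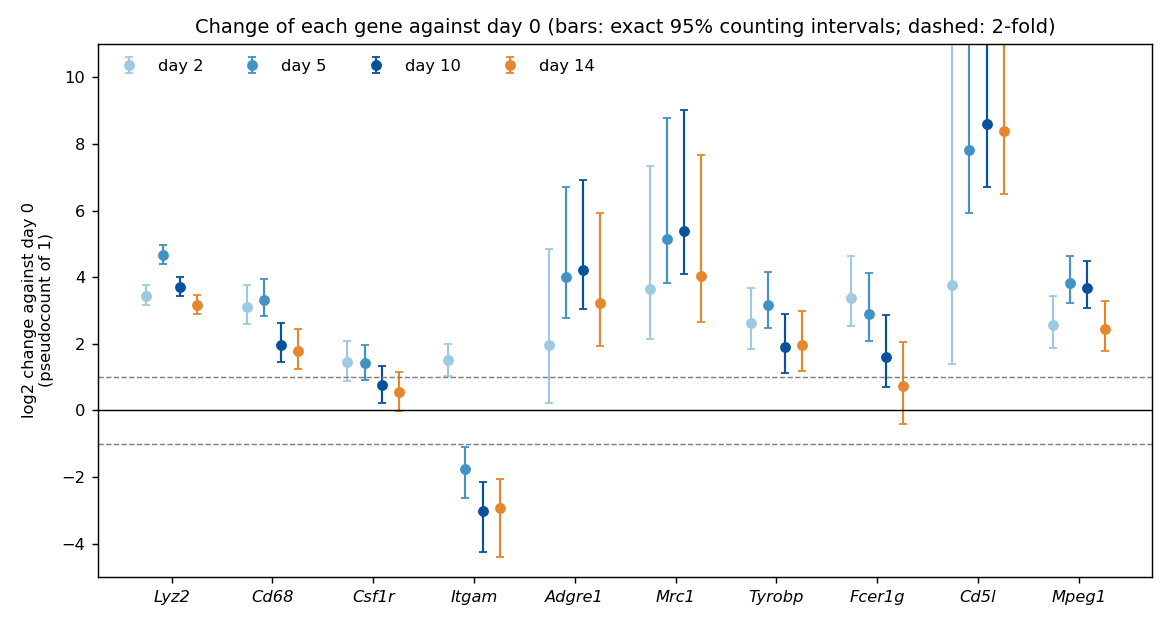
Log2 change of each gene against day 0 (vertical axis, pseudocount of 1) on days 2, 5, 10 and 14, with bars for exact 95% counting intervals computed without a pseudocount and dashed lines at 2-fold. The bars of Cd5l, which had no count on day 0, run to the top of the axis and its points depend on the pseudocount, and Itgam is the only gene below 0, at −3.01 on day 10.

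The members therefore differed in when they were highest. By normalized counts, Csf1r, Itgam and Fcer1g were highest on day 2, Lyz2, Cd68, Tyrobp and Mpeg1 on day 5, and Adgre1, Mrc1 and Cd5l on day 10. For 4 of the 10, Lyz2, Itgam, Tyrobp and Cd5l, the interval between the highest and the second highest day left 0 out, and for the other 6 these neighbouring days did not differ beyond counting error. On the TPM scale the highest day was day 5 for Csf1r (13.7) and Fcer1g (70.3) and day 10 for Mpeg1 (46.0), and was the same for the other 7. Expressed as shares of a gene's normalized counts per day, the most alike pair was Adgre1 and Mrc1, with a profile distance of 0.0485 where 0 means the same shares on every day, followed by Cd68 and Tyrobp with 0.0596. Itgam and Cd5l were the least alike, at 0.870. These distances compare 5 single libraries and are descriptions.

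**Figure D3:**
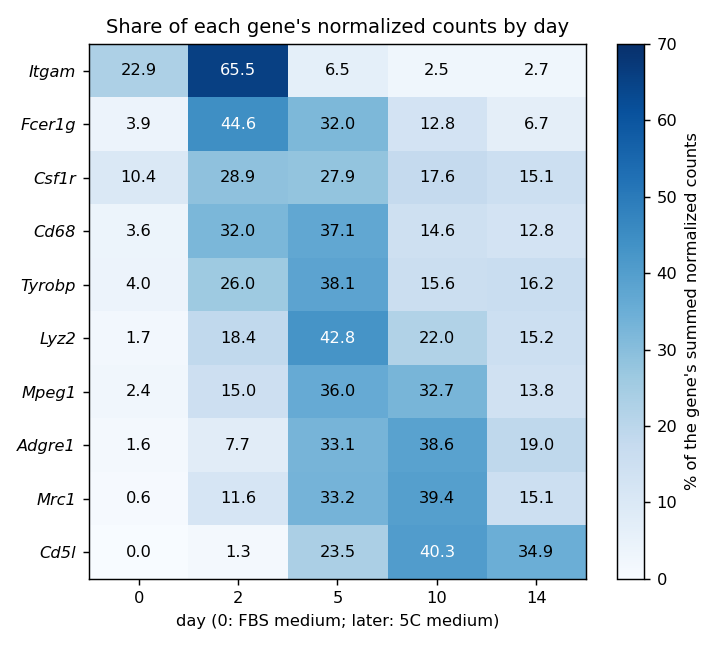
Percentage of each gene's normalized counts, summed over the 5 libraries, that fell on each day (columns are days, rows are genes from early to late). Itgam had 65.5% of its counts on day 2, Lyz2 had 42.8% on day 5 and Cd5l had 40.3% on day 10.

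Between days 2 and 5, 5 of the 10 genes were over 2-fold higher (19.0% of all genes) and their median log2 change was 0.88. Cd5l moved most, with 4.04 (interval 3.08 to 5.47), and Lyz2, Mpeg1, Mrc1 and Adgre1 followed with 1.22, 1.25, 1.50 and 2.03, whereas Itgam moved by −3.26 (interval −4.11 to −2.64). Between days 5 and 10, 4 genes were over 2-fold lower (9.50% of all genes), namely Cd68, Fcer1g, Tyrobp and Itgam with −1.34, −1.30, −1.27 and −1.25. With TPM values, whose median over all genes was 0.39 at this step, none of the 10 was over 2-fold lower, and these 4 genes changed by −0.90, −0.86, −0.84 and −0.03. The median of the 10 genes over this step was −0.81, against −0.01 for all genes. Between days 10 and 14, Adgre1, Mpeg1 and Mrc1 were over 2-fold lower (3 of 10, against 8.33% of all genes), and Adgre1 was just past the threshold with −1.002 (interval −1.59 to −0.49) and short of it with DESeq2 size factors (−0.97) or a pseudocount of 5 (−0.93). Over this last step the intervals of Lyz2, Adgre1, Mrc1, Fcer1g, Cd5l and Mpeg1 lay below 0 and those of the other members held 0. The median was −0.37, against 0.02 for all genes.

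The members that were lower on day 10 than on day 5 were in part the short ones, and gene length moved with the change of all genes at this step. With all genes that passed the filter sorted into 5 groups of equal size by length, the group of shortest genes had a median log2 change of −0.63 from day 5 to day 10 and the group of longest genes one of 0.56. Lyz2, Cd68, Tyrobp and Fcer1g, with deposited lengths of 564 to 1266 bases, lie in the group of shortest genes and changed by −0.96 to −1.34. Csf1r, Itgam, Mpeg1 and Mrc1, of the group of longest genes, changed by −0.66, −1.25, −0.14 and 0.24. Against the median of its own length group, a gene was lower in 8 of the 10 cases, the exceptions being Adgre1 (0.22 against 0.20) and Cd5l (0.78 against −0.27). From day 10 to day 14 the length medians went the other way, with 0.40 for the shortest and −0.39 for the longest genes, and again 8 of the 10 genes were below the median of their group. The part of gene length in the order of the highest days was not tested.

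**Figure D4:**
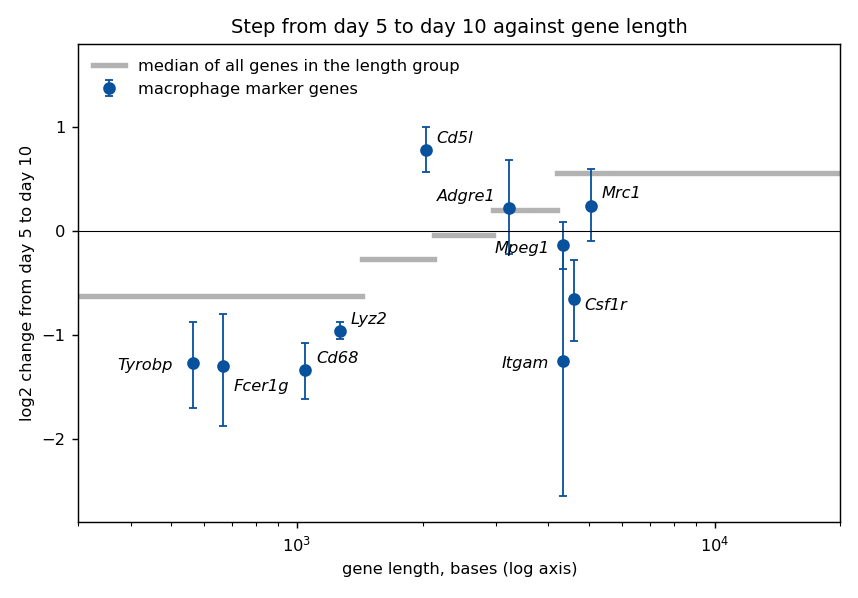
Log2 change from day 5 to day 10 (vertical axis, with exact 95% counting intervals) against gene length in bases (horizontal log axis) for the 10 genes, with grey lines for the median of all genes in each length group. Tyrobp, Fcer1g, Cd68 and Lyz2 lie below the grey line of the group of shortest genes (−0.63), and Cd5l, at 0.78, lies above that of its group.

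Levels of different genes can be compared only per gene length, for which the deposited TPM values were used. Lyz2 was the highest of the 10 in every library, with 30.3 TPM (day 0), 276 (day 2), 1252 (day 5), 882 (day 10) and 499 (day 14). Cd68 was second on days 0, 2 and 5, with 13.5, 96.4 and 157 TPM. On days 10 and 14 Cd5l was second, with 150 and 106 TPM, after 0 on day 0 and 63.5 on day 5. The adaptors Tyrobp and Fcer1g reached 139 and 70.3 TPM on day 5. The surface receptors stayed lower, with maxima of 18.3 TPM for Mrc1, 17.7 for Adgre1, 13.7 for Csf1r and 10.8 for Itgam. Itgam was the lowest of the 10 on days 5, 10 and 14, at 2.16, 2.09 and 0.97 TPM.

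The transcription factor PU.1 is known to bind purine-rich DNA with a GGAA core in the control regions of macrophage genes. Spi1 itself had 1, 6, 33, 17 and 8 expected counts from day 0 to day 14, and so was highest on day 5. Windows of 250 bases before the RefSeq start were searched for GAGGAA, also as its reverse complement TTCCTC. RefSeq (GRCm38.p6) windows were matched for 7 of the 10 genes, all but Csf1r, Adgre1 and Tyrobp. The motif stands in 4 of the 7, those of Mrc1, Cd5l, Itgam and Cd68, and in 23.3% of all 32851 windows. A match is a run of letters and not a bound site. Mrc1 (chr2:14229164-14229413, plus strand) and Cd5l (chr3:87357631-87357880, plus strand), which were highest on day 10, are shown beside Itgam (chr7:128062390-128062639, plus strand), whose deposited value was highest on day 2, with the matches in capitals:
Mrc1: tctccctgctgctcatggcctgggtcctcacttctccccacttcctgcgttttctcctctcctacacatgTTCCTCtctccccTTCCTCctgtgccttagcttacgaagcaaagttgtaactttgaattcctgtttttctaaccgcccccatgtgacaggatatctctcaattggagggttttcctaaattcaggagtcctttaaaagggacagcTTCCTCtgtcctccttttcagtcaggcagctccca
Cd5l: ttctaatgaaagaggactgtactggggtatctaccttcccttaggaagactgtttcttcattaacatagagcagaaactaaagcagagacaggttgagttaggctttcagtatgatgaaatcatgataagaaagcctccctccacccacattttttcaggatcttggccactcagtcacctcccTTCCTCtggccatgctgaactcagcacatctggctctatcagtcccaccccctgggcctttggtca
Itgam: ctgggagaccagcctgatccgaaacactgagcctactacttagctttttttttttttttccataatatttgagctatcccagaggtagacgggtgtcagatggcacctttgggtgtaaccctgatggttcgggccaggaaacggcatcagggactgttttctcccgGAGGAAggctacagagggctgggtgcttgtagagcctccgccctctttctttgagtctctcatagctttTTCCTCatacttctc

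The Mrc1 window holds 3 matches, the Itgam window holds 2 and the Cd5l window holds 1. The closest to a start is in the Itgam window, 15 bases before it. The windows of Lyz2, Mpeg1 and Fcer1g hold no match, which says only that these letters are not in those 250 bases.

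Genes with courses like those of Csf1r and Cd5l were sought among 8248 genes that reached 100 expected counts in some library. The 10 closest to Csf1r were Stk38l, Cotl1, Cpped1, Cbr3, Il4ra, Adamts10, Gsdmd, Isyna1, Ssbp4 and Pfkm, with profile distances from 0.0173 to 0.0473. The 10 closest to Cd5l were Serpina3n, Il1r1, Ntm, Nfasc, Moxd1, Plekha5, Col23a1, 1500015O10Rik, Ndst3 and C1s1, with distances from 0.0151 to 0.0641. None of these genes is in any of the gene lists used here. The members, and listed genes below 100 expected counts in every library such as Cd53, Itgb2, Spi1 and C1qa, were not among the genes searched. The absence of listed genes was thus in part fixed by this limit. With 5 single libraries the distances are descriptions.

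The macrophage growth factors and their receptors were measured beside the members. Csf1, the main ligand of Csf1r, had 1539, 514, 1061, 788 and 469 expected counts from day 0 to day 14, and its log2 change was −0.71 on days 2 and 5, −1.44 on day 10 and −1.86 at the end. Il34, the other ligand, went from 4 to 106 expected counts by day 14 (log2 change 4.27). The ligands thus went in opposite directions. Of the 8 genes of this list 4 passed the filter, and Csf2ra and Csf2rb, receptor chains for GM-CSF, had 54 and 25.3 expected counts on day 10 against 13.6 and 0 on day 0.

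Of 12 transcription factors of myeloid cells 11 passed the filter, and 2, 7, 5 and 6 of them were over 2-fold above day 0 on days 2, 5, 10 and 14, when 15.2%, 20.2%, 28.7% and 24.5% of all genes were. Over 2-fold below day 0 were 0, 1, 2 and 2 of them (13.1%, 13.6%, 22.3% and 19.9% of all genes). These were Spic on days 5, 10 and 14, Cebpb on day 10 and Irf5 on day 14. Maf, a factor of macrophage differentiation, had 45, 38, 173, 364 and 334 expected counts from day 0 to day 14. Cebpa had 32 expected counts at day 0 and 225 at day 14 (log2 change 2.63), whereas Cebpb changed by −1.50 on day 10. These factors are also used by other cells than macrophages. On day 2 the log2 change of Maf was 0.62, with an interval that held 0 (−0.04 to 1.28). The 2 factors over 2-fold above day 0 on day 2 were Spi1 (2.57, interval 0.41 to 8.98) and Nr1h3 (1.35, interval 0.04 to 2.95).

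Of 14 genes shared by leukocytes 11 passed the filter, and 9 of them were over 2-fold above day 0 on each later day (15.2%, 20.2%, 28.7% and 24.5% of all genes), with medians of 1.71, 4.22, 3.70 and 2.97. Among these calls, the day 2 intervals of Ptprc, Vav1 and Hcls1 and the day 14 interval of Ptprc held 0. With genes that had a library without counts set to the bound of 3 counts, the medians were 1.71, 3.35, 2.40 and 2.18. Laptm5 had 10, 72, 246, 239 and 124 expected counts from day 0 to day 14, Lcp1 had 6, 29.5, 147, 146 and 64.9, and Cd53 had 1, 13, 79, 44 and 31, each with its highest value on day 5. Over 2-fold below day 0 were 1, 0, 2 and 2 genes on days 2, 5, 10 and 14 (13.1%, 13.6%, 22.3% and 19.9% of all genes). The gene on day 2 was Itgb2, with an interval that held 0. Arhgdib had 1576 expected counts on day 0 and a log2 change of −2.93 on day 14, and Coro1a, a regulator of actin in leukocytes, had 11, 21, 11, 0 and 3 expected counts. Ptprc, which encodes the leukocyte antigen CD45, had 0, 1, 8, 22 and 4 expected counts.

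Fc, scavenger and other phagocytic receptors were mostly higher too. Of 18 genes 15 passed the filter, and 13, 13, 13 and 12 of them were over 2-fold above day 0 on days 2, 5, 10 and 14, when 15.2%, 20.2%, 28.7% and 24.5% of all genes were. Among these calls, the day 2 intervals of Fcgr1, Fcgr4, Clec4n, Marco and Msr1 and the day 14 interval of Fcgr4 held 0. Only 1 gene, Axl, was over 2-fold below day 0, on day 5 (13.6% of all genes). The medians were 2.05, 2.74, 2.28 and 2.58, or 1.35, 2.65, 2.28 and 2.11 with genes without a count at their bound. Sirpa, whose product takes part in the restraint of phagocytosis, had 160 expected counts at day 0 and 1063 at day 14, Cd36 had 12 and 457, and Mertk, a receptor for dying cells, had 12.3 and 159. Axl, the relative of Mertk that fibroblasts express as well, had 2741 on day 0 and 1155 on day 5 (log2 change −1.42).

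Of 16 genes for complement C1q, lysosomal enzymes and the phagocyte oxidase, all passed the filter, and 11, 13, 11 and 9 were over 2-fold above day 0 on days 2, 5, 10 and 14, when 15.2%, 20.2%, 28.7% and 24.5% of all genes were (medians 1.73, 2.20, 1.27 and 1.53). The 3 chains of C1q, which macrophages make, were already higher on day 2. C1qa had 4, 61, 96, 55 and 53 expected counts from day 0 to day 14, C1qb had 7, 66, 138, 93 and 82, and C1qc had 12, 91, 143, 122 and 107. The most abundant genes of the list are not specific to macrophages. Ctsb had a log2 change of 1.40 on day 5, Gpnmb one of 1.90 and Ctsd one of 0.53, which was −0.53 on day 10, and Apoe had 469 expected counts at day 0 and 9366 at day 14 (log2 change 4.17). Over 2-fold below day 0 on days 5, 10 and 14 (13.6%, 22.3% and 19.9% of all genes) were Lgals3 and Cyba. Lgals3, which encodes galectin-3, changed by −1.60, −2.75 and −2.61. Cyba, which encodes a chain of the oxidase, changed by −1.03, −2.30 and −1.90.

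**Figure D5:**
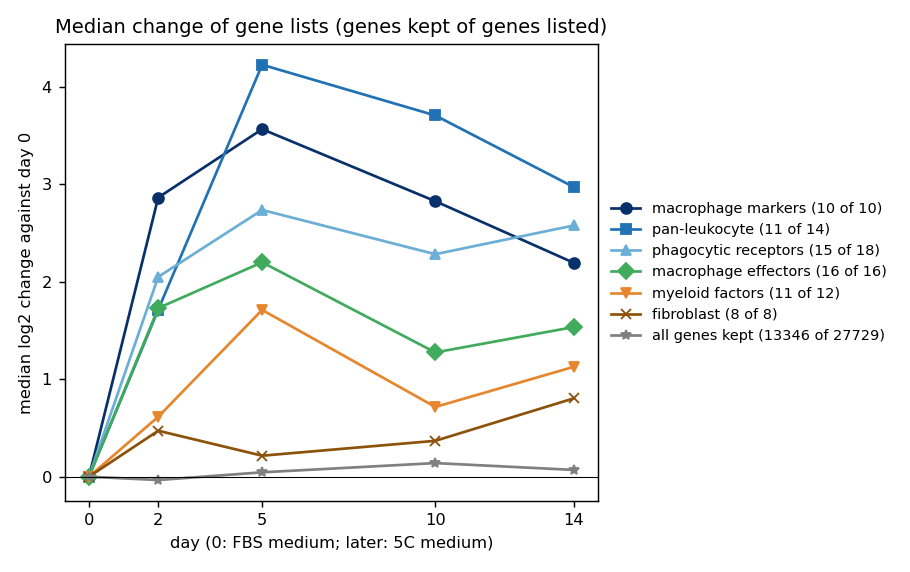
Median log2 change against day 0 (vertical axis, pseudocount of 1) by day for the 10 macrophage markers and 5 other gene lists, with all genes that passed the filter in grey. The macrophage markers and the genes shared by leukocytes are highest on day 5, at 3.56 and 4.22, while all genes stay between −0.03 and 0.14.

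Markers that define other cells of the blood had few or no counts. Of the 8 neutrophil markers, which bear on Lyz2, Itgam and Fcer1g, 4 had no count in any library and 1, S100a8, passed the filter, with 14 expected counts on day 5. Their summed expected counts were 1, 10.0, 15.1, 1 and 3 from day 0 to day 14, beside 109, 650, 3129, 1970 and 1089.8 for Lyz2 alone. The 8 T and NK cell markers summed to between 4.26 and 14.4 expected counts, with 4 at 0 in every library, the 5 B cell markers to between 2 and 8.08, and the 6 mast cell markers to between 0 and 26. Itgax, which dendritic cells share with some macrophages, had 0, 2, 23.9, 20.2 and 6.

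Genes of specialized macrophages and their relatives gave a mixed picture. Of 6 microglia markers, P2ry12 had 0, 0, 18, 69 and 42 expected counts from day 0 to day 14, while Cx3cr1 did not pass 2.87 and Siglech did not pass 1 count. Tmem119, which was already at 132 expected counts on day 0, changed by −1.45 on day 10. Ctsk, an osteoclast protease that other mesenchymal cells make too, had a log2 change of 2.27 on day 5, and Acp5 had 4 expected counts at day 0 and 20 to 22 on later days, but the osteoclast markers Dcstamp and Calcr were at 0 in every library. Of 9 genes of inflammatory and alternative activation only Ptgs2 passed the filter, with 377 expected counts at day 0 and 32 at day 14 (log2 change −3.66), and Chil3 and Retnla were at 0 in every library.

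Fibroblast genes did not move as 1 group. Of 8 markers, 3 were over 2-fold above day 0 on each later day (15.2%, 20.2%, 28.7% and 24.5% of all genes). Over 2-fold below it were 1, 1, 2 and 2 on days 2, 5, 10 and 14 (13.1%, 13.6%, 22.3% and 19.9% of all genes). These were Col1a1 on day 2, Twist2 on days 5, 10 and 14 and Thy1 on days 10 and 14. On day 10 Col3a1 and Dcn changed by 3.73 and 4.41, Col1a1 and Col1a2 by 0.21 and 0.53, and Thy1 and Twist2 by −1.69 and −2.74. The part that a change in the share of macrophages or of other cells in the cultures had in the values of the 10 genes was not tested.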

How the data were processed

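RNA of 5 MEF cultures (day 0 and days 2, 5, 10 and 14 of 5C medium, 1 library each) was prepared by the authors with Trizol and the Illumina TruSeq RNA kit, which does not mark strand. Per the submitters' processing notes the reads were processed with Bowtie and RSEM on mm10, with versions not given in the sources used here. The authors deposited expected counts per gene (estimated read numbers, not scaled for depth), which gave all main results. The deposited TPM values, divided by gene length and scaled per library by the authors, served as an alternative and for levels between genes. The deposited FPKM values were used for no result.

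TMM factors (0.856, 0.808, 1.11, 1.19 and 1.10 from day 0 to day 14) were computed from rounded counts with edgeR 4.0.16 in R 4.3.3. Changes are log2 ratios of normalized counts with a pseudocount of 1, and changes of TPM values have a pseudocount of 1 TPM, which weighs on genes of low TPM. Folds have no pseudocount, and called genes pass 2-fold and reach 10 expected counts in some library. Intervals are exact Clopper-Pearson 95% intervals of rounded counts and cover counting error only. GENCODE M21 (GRCm38) gave symbols for 27247 of 27729 genes. The members, the 16 other gene lists and the rules were chosen with earlier results of these data known. From each list at most the 4 genes with most counts and 20 or more were to be named. Itgb2, Ptprc, Coro1a, Vav1, Hcls1, Spi1, Spic, Irf5, Nr1h3, Trem2, Clec4n, Marco, Msr1, Lgals3, Cyba, Thy1, Twist2, Cdh5, Tek, Hba-a1, the Fcgr genes, Ms4a2 and the C1q genes, like Hmgxb3 and Lyz1, were named after their values had been seen. Some listed genes are not reported here. Like genes are those with the smallest profile distance, 0.5 times the summed absolute difference of shares per day. The computation was tested on simulated counts. Other steps ran in Python 3.11.15 (pandas 2.3.3, numpy 2.4.6, matplotlib 3.10.9, scipy 1.17.1). The alternatives were DESeq2 1.42.0 size factors, library totals, TPM, a pseudocount of 5, rounded counts, other filters and a 4-fold threshold.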

Additional observations from a re-analysis of the deposited data

How the results depend on the processing

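Called changes of the 10 genes against day 0 and between neighbouring days kept their direction under every alternative run for them. A number of genes was taken as unchanged within 1.5 times, and a change or median within its counting interval. By these limits DESeq2 size factors, rounded counts, no filter and TMM factors without the day 2 library (added after seeing the data, and without the changes that involve day 2) moved nothing, although DESeq2 size factors left 2 instead of 3 genes over 2-fold below day 10 on day 14, as did a pseudocount of 5. Of 70 single changes, TPM values moved 32, library totals 8 and a pseudocount of 5 moved 3, all of Cd5l. The alternatives for the steps from day 2 to day 5 and from day 5 to day 10 were added after seeing the data. TPM values gave a day 2 median of 1.76, medians of 1.58 and −0.031 for these 2 steps, and 0 genes over 2-fold below day 5 on day 10. Library totals gave 1.34 for the step from day 2 to day 5. The median of all genes on days 2, 5, 10 and 14 was −0.20, 0.61, 1.09 and 0.78 with TPM and −0.11, 0.41, 0.60 and 0.42 with library totals. With 10 or more counts required in every library, which takes out Adgre1, Mrc1 and Cd5l, low on day 0, and Itgam, 6 genes were left. Of these, 6, 5 and 4 were over 2-fold above day 0 on days 2, 10 and 14, 2 were above day 2 on day 5 and 1 was below day 10 on day 14, with medians of 1.94 on day 10, 0.38 from day 2 to day 5 and −1.12 from day 5 to day 10. With a 4-fold threshold, 5 genes were called above day 0 on day 10, 2 above day 2 on day 5, 0 below day 5 on day 10 and 0 below day 10 on day 14. The shares of all genes called with 10 or more counts in every library, or at 4-fold, are not given here. These counts therefore show only how the calls depend on the settings. Without Csf1r and Itgam (added after seeing the data) the medians were 3.68 on day 10 and 1.24 from day 2 to day 5. No paired analysis was possible because each day has 1 library and the replicate numbers pair nothing. Differences between cultures cannot be estimated from these data.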

Other observations

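Markers of blood vessels and red blood cells were few in counts apart from 1 gene on day 0. Kdr, the main VEGF receptor of endothelial cells, had 238 expected counts at day 0 and 2, 6, 9 and 4 on days 2, 5, 10 and 14 (log2 change −5.68 on day 2). Emcn, an endothelial sialomucin, had 35, 28, 20, 2 and 4. Of the other vessel markers, Cdh5 had 1, 3, 5, 4 and 2 and Tek had 1, 3, 3, 13 and 2. Alas2, the erythroid enzyme that starts heme synthesis, had 0, 1, 29.9, 6 and 1 expected counts, Hba-a1, a globin chain, had 10 on day 2 and 0 on the other days, and Itga2b, the platelet integrin chain, had 20, 33, 26, 18.1 and 22.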
